A study of Oreochromis niloticus and Pundamilia nyererei with 6 samples.

Results

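Spliced transcripts whose genomic span exceeded 100000 bases were examined in liver RNA of a pair of cichlid fishes, the Nile tilapia *Oreochromis niloticus* (ON) and the Lake Victoria cichlid *Pundamilia nyererei* (PN). A transcript was taken as long-span where it carried a strand, had 2 to 39 exons, and its end lay over 100000 bases from its start, both ends counted. In ON this held for 679 of 30430 stranded transcripts of 2 to 39 exons (2.23%), out of 41456 transcripts in all. In PN it held for 592 of 25209 (2.35%), out of 45966. No expression value entered this choice. Transcripts of 40 or more exons with such spans, 71 in ON and 55 in PN, were left out.

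The libraries came from the livers of 3 ON males of about generation 93, originating from Manzala in Egypt, and 3 PN males of generation 1 from Lake Victoria, all kept in tanks and with no treatment listed, one library per fish. Total RNA was depleted of ribosomal RNA and sequenced as stranded paired reads of 75 bases. Each species was aligned to its own genome (ASM185804v2 for ON, PunNye1.0 for PN) and measured on its own merged transcript set from Stringtie with reference annotation (WR). Species, genome and annotation therefore cannot be told apart in any comparison between ON and PN.

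A gene's span is the stretch of genome from the first to the last base of its transcript, and most of it is intron, copied by RNA polymerase and removed by splicing. Total RNA that is depleted of ribosomal RNA, in place of being selected for poly(A) tails, also holds unfinished and unspliced RNA. In vertebrates, genes with very long introns are known mainly from neurons and muscle, where many code for adhesion, synapse or scaffold proteins, while many highly expressed genes have short introns. The transcripts here carry serial names without a gene symbol, so neither the genes behind them nor liver marker genes could be looked up, and transcripts are described by name, position and structure. In bulk RNA, fewer cells of a type and less RNA per cell cannot be told apart.

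Abundance is given as FPKM (mapped fragments divided by the exonic kilobases of the transcript and by the Mio of fragments in the library), as the authors' tables list it. The aligned bases behind these values, computed from the listed coverage and FPKM, ran from 1691745086 to 1997213175 per library, with the 3 ON libraries above all 3 PN libraries. At the median exonic length of a long-span transcript, 3 reads correspond to an FPKM of 0.0196 to 0.0198 in ON and 0.0234 to 0.0269 in PN. Values below this floor rest on very few reads, and the floor covers read counting only. The exact intervals given below treat transcripts as independent draws and cover no variation between fish. Replicates are separate fish.

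Long-span transcripts were built of many exons set far apart. Their median span was 146817 bases in ON (range 100011 to 1176053) and 144552 bases in PN (100058 to 575964). The mean intron of a transcript had a median of 10158 bases in long-span and 811 bases in shorter ON transcripts. In PN the medians were 9430 bases in long-span and 797 bases in shorter transcripts. Exons covered a median of 3.54% of a long span against 30.2% of a shorter one in ON, and 3.24% against 28.1% in PN. The number of exons was also larger, with a median of 16 in long-span and 7 in shorter ON transcripts, and 17 and 8 in PN. At the same exon number the exonic length was still 1.45 times that of shorter spans in ON and 1.37 times in PN. Detection and level were therefore compared at the same exon number, with exonic length matched too as an alternative, and comparisons with all shorter spans are named as such.

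The long spans were spread widely over the genomes. They lay on 44 sequences in ON, where 650 of 679 were on 23 chromosome sequences (those with NC accessions), and on 227 shorter scaffolds in PN. In ON 370 lay on the plus and 309 on the minus strand, and in PN 270 and 322. Among the 22 ON sequences with at least 500 transcripts of 2 to 39 exons, NC_031966.1 had the most long spans for its transcripts, 51 of 1180, and NC_031986.1 the fewest, 14 of 1272. Of the 51 on NC_031966.1, 15 overlapped in 1 locus. Just inside the threshold were mRNA5112, mRNA5113 and mRNA25924 in ON, with spans of 100011, 100012 and 100125 bases, and just outside it mRNA2712, mRNA1429 and mRNA5111, with 99781, 99630 and 99567 bases. In PN mRNA936, mRNA39205 and mRNA5925 (100058, 100081 and 100180 bases) were just inside, and mRNA28072, mRNA26602 and mRNA14317 (99915, 99646 and 99644 bases) just outside. Of these 12 transcripts only mRNA25924 had an FPKM over 2 in any fish.

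The first question was whether long-span transcripts were detected in every fish as often as shorter ones. Over all long spans the share detected was lower in both species, by less when spans of 50000 to 100000 bases were the comparison (-3.07 percentage points in ON, -4.95 in PN), and in ON the direction turned for spans over 200000 bases (given with the span classes). In ON 432 of 679 (63.6%, exact Clopper-Pearson 95% interval 59.9 to 67.2) had an FPKM above 0 in all 3 fish, where shorter spans of the same exon number reached 69.6%. Over all stranded ON transcripts of 2 to 39 exons, the share was 65.6%, which the interval held, while it did not hold the exon-matched 69.6%. In PN 391 of 592 (66.0%, 62.1 to 69.9) were above 0 in all 3 fish, against 75.8% of shorter spans of the same exon number and 75% of all stranded transcripts of 2 to 39 exons. One merged set per species has no replicate error, and long-span transcripts of one locus share reads, so these intervals are too narrow as a measure of sampling.

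The gap was wider at higher abundance. At least 1 FPKM in all 3 fish was reached by 128 long-span ON transcripts (18.9%, 16.0 to 22.0), against 35.1% of shorter spans of the same exon number and 33.1% of all. In PN it was reached by 135 (22.8%, 19.5 to 26.4), against 44.3% and 45.6%. With coverage worth at least 3 reads in all 3 fish as the rule, 383 ON long-span transcripts (56.4%) passed, against 63.7% of shorter spans of the same exon number and 59.3% of all. In PN 350 (59.1%) passed, against 70.7% and 70.1%. Long spans had the lower share under each of these rules.

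Very few long-span transcripts were at 0 in every fish. There were 6 in ON (0.884%, against 0.850% of all shorter spans) and 5 in PN (0.845%, against 0.288%). The study's methods describe a removal of unexpressed transcripts, and whether the tables were made before or after it was not tested. Another 132 in ON and 106 in PN were above 0 in 1 fish only, and 109 and 90 in exactly 2 fish. Within single libraries, 540, 540 and 566 of the 679 ON transcripts and 487, 480 and 492 of the 592 PN transcripts were above 0. In ON this was 79.5%, 79.5% and 83.4%, against 82.5%, 81.3% and 81.8% of all shorter spans, so fish 3 had the opposite order. In PN it was 82.3%, 81.1% and 83.1%, against 87.4%, 88.4% and 86.8%. Of the long spans above 0, 55 to 67 per ON library and 50 to 67 per PN library rested on coverage worth under 3 reads.

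**Figure D1:**
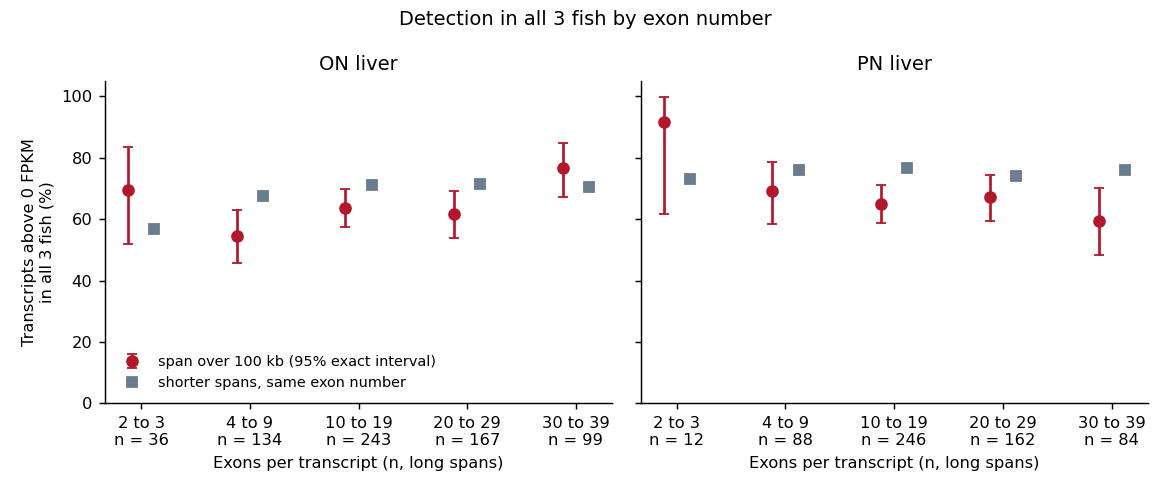
Share of transcripts with an FPKM above 0 in all 3 fish (y axis, percent) by exons per transcript (x axis), in ON and PN liver. Circles are long spans with exact 95% intervals and squares are shorter spans of the same exon number. Long spans are below shorter ones in ON from 4 to 29 exons and in PN from 4 to 39 exons, and above them at 2 to 3 exons (69.4% against 56.8% in ON, 91.7% against 72.9% in PN), where both intervals hold the value of shorter spans.

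Detection differed by exon number. In ON the classes of 4 to 9, 10 to 19 and 20 to 29 exons reached 54.5%, 63.8% and 61.7%, against 67.4%, 71.0% and 71.5% of shorter spans. In ON transcripts of 30 to 39 exons the order was turned, with 76.8% of 99 long spans against 70.3%. In PN every class from 4 exons up was lower, with differences of -6.77 percentage points at 4 to 9 exons, -11.7 at 10 to 19, -6.84 at 20 to 29 and -16.6 at 30 to 39. The intervals lay below the value of shorter spans at 4 to 9, 10 to 19 and 20 to 29 exons in ON. In PN they did so at 10 to 19 and 30 to 39 exons. Long spans of one locus share reads, so these intervals are too narrow to sort the classes. At 2 to 3 exons the intervals, 51.9 to 83.7 in ON and 61.5 to 99.8 in PN, held the values of shorter spans (56.8% and 72.9%), and against ON spans of 50000 to 100000 bases the difference was -0.758 points.

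The second question was how abundant the long-span transcripts were in each library. They were less abundant than shorter ones in all 6. The median FPKM of long spans was 0.185, 0.149 and 0.178 in the 3 ON fish, against 0.537, 0.538 and 0.543 for all shorter spans. In PN it was 0.206, 0.228 and 0.156, against 1.31, 1.58 and 1.41. The classes did not overlap between libraries in either species. In reads, the median long-span transcript had coverage worth 23.4, 20 and 25 reads in ON, against 31.1, 30.9 and 31.7 for shorter spans, and 22.8, 24.0 and 20.9 reads in PN, against 65.2, 71.1 and 73.6.

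With exon number matched, the level of long spans was lower by 1.41, 1.46 and 1.38 on the log2(FPKM + 0.1) scale in the 3 ON fish, which gave a mean difference of -1.42 ± 0.04 (SD, n = 3). On the same scale this is 0.375 times the level of shorter spans. In PN the differences were -1.97, -2.06 and -2.21, with a mean of -2.08 ± 0.12 (SD, n = 3) or 0.237 times the level of shorter spans. The direction was the same in 3 of 3 fish of each species, and the exact two-sided sign-flip test gave p = 0.25, the smallest that 3 fish allow. The pseudocount shrinks these values, as long spans were mostly low: with a pseudocount of 1 the differences were -0.42 in ON and -0.80 in PN, and with 0.01 they were -1.87 and -2.57. Against spans of 50000 to 100000 bases in place of all shorter ones they were -0.40 and -0.93.

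Ranked among shorter spans of the same exon number, the median long-span transcript stood at percentile 36.1, 35.7 and 36.2 in the ON fish and 30.4, 29.3 and 29.2 in the PN fish. The level difference between the span classes was smaller in ON than in PN, by 0.66 on the log2 scale (-1.42 ± 0.04 in ON, -2.08 ± 0.12 in PN, SD, n = 3 each). The 2 species did not overlap, and the exact two-sided permutation test gave p = 0.10, the smallest that 3 against 3 fish allow. Of 7 such comparisons between ON and PN (the level over all exon numbers and in 5 exon classes, and the share of aligned bases), each gave p = 0.10 in the exact test and 0.10 after Benjamini-Hochberg adjustment.

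**Figure D2:**
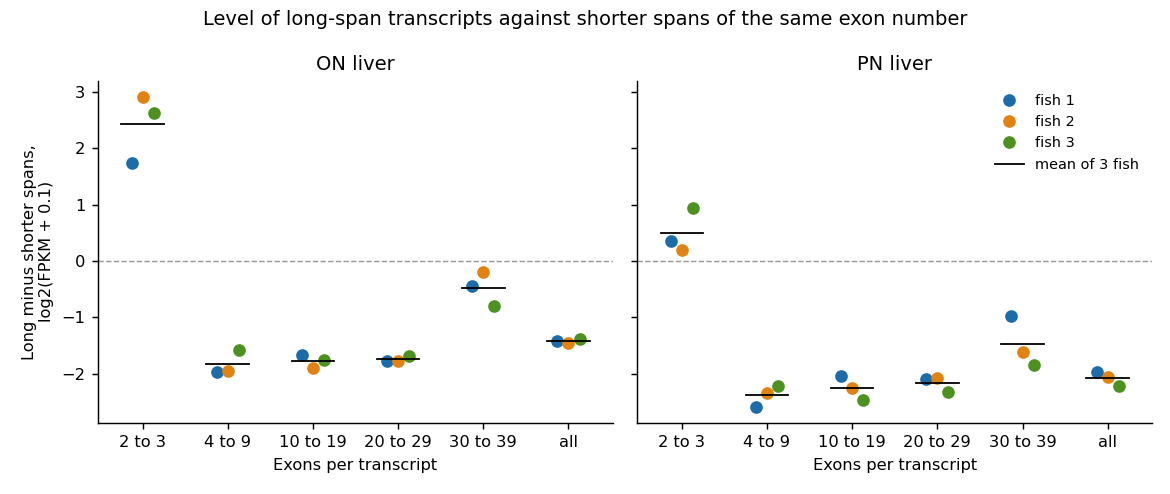
Difference in level, long spans minus shorter spans of the same exon number (y axis, log2(FPKM + 0.1)), by exons per transcript (x axis), in ON and PN liver. Points are fish and bars the mean of 3 fish. The classes of 4 to 29 exons lie between -1.58 and -2.59, and only the class of 2 to 3 exons lies above 0 in every fish (mean 2.43 in ON, 0.50 in PN).

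The lower level was seen from 4 exons up. In ON it was -1.83 ± 0.22, -1.77 ± 0.12, -1.74 ± 0.05 and -0.48 ± 0.30 for 4 to 9, 10 to 19, 20 to 29 and 30 to 39 exons (log2, SD, n = 3). In PN the same classes gave -2.39 ± 0.19, -2.25 ± 0.21, -2.16 ± 0.14 and -1.48 ± 0.45. The class of 30 to 39 exons had the smallest difference of these in both species. In every class from 4 exons up, and in every fish, long spans had the lower level.

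Long spans of 2 to 3 exons went the other way, most clearly in ON. In ON the 36 such transcripts, in 29 loci, had a median FPKM of 1.27, 2.76 and 2.37 in the 3 fish, against 0.268 in each fish for shorter spans of 2 to 3 exons. Their level was higher by 1.73, 2.92 and 2.63 on the log2(FPKM + 0.1) scale (2.43 ± 0.62, SD, n = 3, higher in 3 of 3 fish, exact sign-flip p = 0.25, the smallest possible). In PN the 12 such transcripts, in 11 loci, had a median FPKM of 1.82, 2.1 and 3.12, against 1.26, 1.62 and 1.37. Their level difference was 0.35, 0.20 and 0.95 (0.50 ± 0.39), and without PN fish 3 it was 0.28. Against spans of 50000 to 100000 bases it was 0.17, with fish from -0.49 to 1.03, so the direction in PN did not hold against the next shorter spans. The level difference at 2 to 3 exons exceeded that at 4 to 39 exons by 3.96 ± 0.63 in ON (2.43 against -1.53). In PN it did so by 2.63 ± 0.50 (0.50 against -2.13), and the order held in 3 of 3 fish of each species. Each level difference is taken against shorter spans of its own exon numbers, so this does not compare the long spans directly.

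The ON transcripts of 2 to 3 exons were short in exonic sequence. Their median exonic length was 592.5 bases, against 1510 bases in shorter spans of 2 to 3 exons, and 12 of the 36 had under 300 exonic bases, against 6.33% of the shorter ones. A mean of at least 10 FPKM was reached by 12 of the 36, 9 of them among those under 300 bases, against 6.71% of shorter spans. Among transcripts under 300 exonic bases, the median FPKM was 47.5, 16.6 and 51.2 for the 12 long spans, against 0.535, 0.494 and 0.596 for 433 shorter spans. The 12 were not independent: mRNA7889, mRNA7890, mRNA7900, mRNA7902 and mRNA7911 share 1 locus, and mRNA26023 and mRNA26024 another. In the first of these loci the shorter spans under 300 exonic bases were high too. These were mRNA7906, mRNA7909, mRNA7910 and mRNA7912, with mean FPKM of 96.9, 22.7, 142 and 38.1. Of the 36, 9 lay on NC_031968.1. Without that sequence the level difference of the 2 to 3 exon class was 1.66, without members under 300 bases 1.61, and against spans of 50000 to 100000 bases 0.84. Matched on exonic length too, it was 2.37. In PN only 2 of the 12 had under 300 exonic bases and none reached a mean of 10 FPKM.

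Level also followed the span itself. In ON, set against spans of up to 100000 bases of the same exon number, the difference was 0.03 for spans of 10000 to 25000 bases, -0.15 for 25000 to 50000, -0.89 for 50000 to 100000, -1.38 for 100000 to 150000 and -1.67 for 150000 to 200000 bases. In PN the same classes gave 0.00, -0.33, -1.17, -1.94 and -2.25. Up to this point the level was lower with each longer class in both species. The classes below the threshold are themselves part of the set they were compared with.

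Beyond 200000 bases the level no longer fell with each class, and the ON value above 300000 bases depended on transcripts of 2 to 3 exons. In ON the difference was -1.08 ± 0.31 for the 106 transcripts of 200000 to 300000 bases and -0.65 ± 0.22 for the 62 above 300000 (SD, n = 3). In PN it was -2.02 ± 0.25 for 83 transcripts and -2.72 ± 0.32 for 39. Without transcripts of 2 to 3 exons, the ON class above 300000 bases stood at -1.64 ± 0.21 (51 transcripts) and the PN class at -2.86 ± 0.31 (36 transcripts). The ON class of 200000 to 300000 bases stayed at -1.16 ± 0.36 without them, and the PN class at -2.05 ± 0.26. The ON difference was thus the smaller one in both classes with and without transcripts of 2 to 3 exons. This alternative was chosen after the values were seen. Detection in all 3 fish above 300000 bases was 79.0% in ON (66.8 to 88.3), against 67.3% of shorter spans, and 59.0% in PN (42.1 to 74.4), against 76.1%. Without transcripts of 2 to 3 exons it was 76.5% in ON (62.5 to 87.2), against 69.6%, and 55.6% in PN (38.1 to 72.1), against 76.3%. Taken over all ON spans above 200000 bases, detection was 1.77 percentage points higher than in shorter spans, the opposite direction to that of all ON long spans. This turn came from the spans above 300000 bases. In ON spans of 200000 to 300000 bases detection was 65.1%, against 69.2% of shorter spans, and without transcripts of 2 to 3 exons 66.0%, against 69.8%. The value for all ON spans above 200000 bases was not computed without transcripts of 2 to 3 exons.

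**Figure D3:**
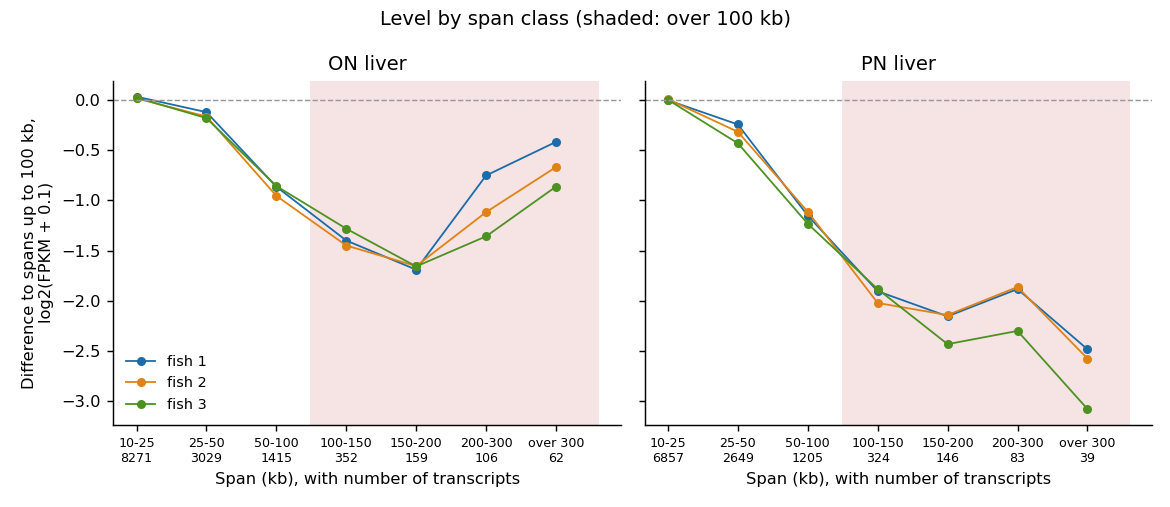
Difference in level to spans of up to 100 kb with the same exon number (y axis, log2(FPKM + 0.1)) by span class (x axis, kb, with the number of transcripts), 1 line per fish, in ON and PN liver. Classes over 100 kb are shaded. In all 6 fish the level is lower with each class from 10-25 kb to 100-150 kb, and above 200 kb the ON lines turn up to a mean of -0.65 while the PN lines end at a mean of -2.72.

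The most abundant long-span transcripts differed in kind between the species. In ON, 5 of the 8 with the highest mean FPKM had 2 to 3 exons and only 219 to 294 exonic bases. mRNA26024 (NC_031980.1, minus strand, 30073379 to 30381259, 2 exons, 294 exonic bases) had 1328, 827 and 99.4 FPKM in the 3 ON fish. mRNA26023, with the same start and an end 4 bases away, had 63.9, 11 and 824 FPKM. The fish that was lowest for one was highest for the other, and their sum was 1392, 838 and 923 FPKM, with a coefficient of variation (CV, SD over mean) of 28.4%. How reads were divided between such near-identical transcripts was not tested, and their single values are uncertain.

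mRNA33393 (NC_031985.1, minus strand, 30421892 to 30840329, 3 exons) had 373, 192 and 223 FPKM. mRNA10610 (NC_031970.1, plus strand, 14245665 to 14463532, 2 exons) had 208, 81.8 and 295 FPKM. For mRNA7902 on NC_031968.1 (2 exons) the values were 106, 20.1 and 129 FPKM. The fish lay far apart in all 5 of these transcripts, with a CV of 36.7% to 152%. Whether other copies of such short exonic sequences in the genome took part in these values was not tested.

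The other 3 of the 8 ON transcripts had 16 to 27 exons and 3857 to 6737 exonic bases, and their fish lay close together, with a CV of 6.05% to 21.3%. mRNA3178 (NC_031981.1, plus strand, 31528926 to 31738657, 27 exons) had 436, 387 and 422 FPKM, 33.7% of its locus. mRNA26700 (NC_031981.1, plus strand, 12709444 to 12891736, 24 exons) had 70.6, 60.1 and 91.0 FPKM. mRNA25924 (NC_031980.1, plus strand, 27224407 to 27324531, 16 exons) had 43.8, 45.6 and 52.5 FPKM, 47.3 ± 4.6 (SD, n = 3). The shorter spans of the same exon numbers had a median mean FPKM of 0.529, 0.782 and 0.942. As these 3 were chosen for their high means, their place above these medians follows from the choice.

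In PN none of the 8 most abundant had 2 to 3 exons. mRNA2236 (NW_005187535.1, minus strand, 1388376 to 1504121, 15 exons, 1881 exonic bases) had 5931, 8098 and 6441 FPKM, a mean of 6823 ± 1133 (SD, n = 3). It was the highest long-span transcript in each PN fish, and it held 26.7% of the FPKM of its locus. mRNA32207 and mRNA32208 overlap on NW_005187612.1 (plus strand, from 363219 and 374000), with 99.3, 140 and 95.3 FPKM and 38.6, 61.8 and 37.5 FPKM. Fish 2 was the highest for both of them and for mRNA2236. mRNA16240 (NW_005187453.1, plus strand, 24 exons) had 122, 92.1 and 92.0 FPKM and was the only transcript of its locus. The CV of the 8 ran from 7.23% for mRNA1143 (6 exons; 42.8, 42.0 and 47.9 FPKM) to 42.0% for mRNA27258 (8 exons; 27.1, 21.1 and 10.8 FPKM).

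**Figure D4:**
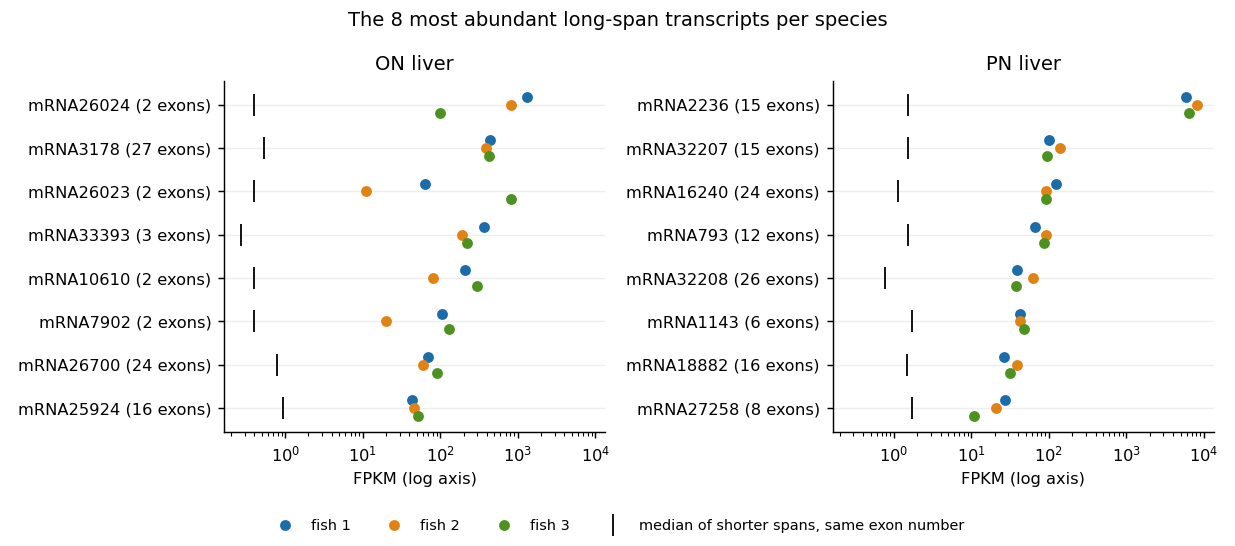
FPKM (x axis, log scale) of the 8 long-span transcripts with the highest mean in ON and in PN liver, 1 point per fish. Vertical ticks mark the median of shorter spans with the same exon number. The transcripts were chosen for a high mean, and all points lie above their tick. The ON transcripts of 2 to 3 exons spread widely between fish (CV 36.7% to 152%), and mRNA2236 in PN stands apart at 5931 to 8098 FPKM.

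Long-span transcripts held 0.768%, 0.701% and 0.768% of the aligned bases in ON (0.746 ± 0.039, SD, n = 3) and 1.69%, 2.20% and 1.81% in PN (1.90 ± 0.26). The share was 1.16 percentage points lower in ON than in PN, with no overlap (exact two-sided permutation test, p = 0.10, n = 3 each, the smallest possible). This order rested on mRNA2236, which held 65.9%, 69.3% and 66.8% of the bases of PN long-span transcripts. Without the transcript of highest mean FPKM in each species the share was 0.724 ± 0.045% in ON and 0.618 ± 0.050% in PN, 0.106 points higher in ON. The ON transcript left out, mRNA26024, held only 5.09%, 3.47% and 0.380% of the bases of ON long-span transcripts. The removals were therefore unlike in size, and leaving out the transcript with the most bases in each species was not tested.

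The 5 longest spans of each species differed widely in abundance. In ON 11 and in PN 4 transcripts spanned over 500000 bases. mRNA28500 (NC_031982.1, plus strand, 16535984 to 17712036, 1176053 bases with 3 exons) had 0.154, 0.137 and 0.0815 FPKM, or 8.60, 7.61 and 4.57 reads. The other 4 of the 5 longest in ON, mRNA32620, mRNA3199, mRNA3200 and mRNA8183, had means of 0.0536, 0.0706, 0.0404 and 1.78 FPKM, so 4 of the 5 lay below the median of long spans in the ON libraries (0.149 to 0.185). In PN the longest, mRNA26720 (NW_005187532.1, plus strand, 300158 to 876121, 17 exons), was listed at 0 in 2 fish and had 0.0122 FPKM, worth 2 reads, in the third. mRNA30784 (NW_005187586.1, plus strand, 550278 to 1071014, 16 exons) had 4.52, 6.45 and 7.06 FPKM, the highest of the 5 longest in PN. The means of mRNA4936, mRNA4937 and mRNA2425 were 0.689, 0.286 and 0.0233 FPKM, so 3 of the 5 lay above the median of long spans in the PN libraries (0.156 to 0.228).

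Variation between fish was larger among long spans than among all shorter spans when every transcript was counted, and close to it above a minimum mean of 1 FPKM. Exon number and abundance were not matched in this comparison. The median CV over 3 fish was 62.2% for long against 55.9% for shorter spans in ON, and 60.5% against 41.7% in PN. Among transcripts with a mean of at least 1 FPKM it was 27.8% (183 long spans) against 27.1% in ON, and 26.4% (186 long spans) against 26.2% in PN. Within that set the ON long spans of 2 to 3 exons varied more, with a median CV of 56.4% (24 transcripts), against 34.8% for shorter spans of 2 to 3 exons. The ON long spans of 4 or more exons had a median CV of 23.1% (159 transcripts). In PN the medians were 24.2% for 10 long spans of 2 to 3 exons, against 32.5% for shorter ones, and 27.0% for 176 long spans of 4 or more exons.

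Some long spans were listed at 0 in one fish and at 1 FPKM or more in another, 27 in ON and 15 in PN. Of the transcripts that reached 1 FPKM in any fish, these were 11.3% of 238 long spans in ON, against 9.95% of all shorter spans, and 6.79% of 221 in PN, against 9.55%. As shares of all transcripts, whether or not they reached 1 FPKM, they were 3.98% against 4.96% in ON and 2.53% against 6.31% in PN, so the order in ON depended on the denominator. In ON mRNA7911 (2 exons) was listed at 0, 0 and 46.0 FPKM, mRNA14723 (4 exons) at 0, 0 and 11.5 and mRNA38557 (2 exons) at 0, 11 and 0. In PN mRNA32786 (6 exons) was listed at 8.08, 4.26 and 0 FPKM, mRNA2090 (31 exons) at 5.71, 6.15 and 0 and mRNA1286 (30 exons) at 5.27, 0 and 0. All 6 shared their locus with other transcripts, of which they held 2.93% to 63.7% of the FPKM. How reads were divided among such overlapping transcripts was not tested.

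Long-span transcripts often overlapped one another. Joined by overlap on one strand, they fell into 492 loci of 23392 in ON and 446 of 20142 in PN. A single long-span transcript was present in 353 ON and 335 PN loci, and 26 and 28 loci held 3 or more. Summed over the locus, 79.3% of the ON loci (390) and 76.2% of the PN loci (340) were above 0 in all 3 fish, where single transcripts reached 63.6% and 66.0%. Matched on the highest exon number in the locus, up to 39, 78.9% of 484 ON loci with long spans were above 0 in all 3 fish, against 83.6% of loci with shorter spans only. In PN it was 76.0% of 442 loci, against 87.3%. Other stranded transcripts were also present in 200 of the ON and 126 of the PN loci. These others could include the long transcripts left out for their exon number. In these loci the long spans examined here took a median of 33.7%, 37.4% and 39.1% of the locus FPKM in the ON fish. In the PN fish they took 46.6%, 45.1% and 56.7%. They held over 50% in 82 of these ON loci and 62 of the PN loci.

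The ON locus with the most long-span transcripts lay on NC_031966.1 (minus strand, 21360435 to 21647162) and had 36 transcripts, 15 of them long. These had 4 to 10 exons, summed to 9.03, 21.4 and 11.9 FPKM of 32.3, 49.1 and 36.7 FPKM, and 12 of the 15 were above 0 in all 3 fish. On NC_031979.1 (minus strand, 35224748 to 35540550) all 6 transcripts were long, with 24 to 25 exons, and their sum was 6.63, 5.43 and 6.38 FPKM. In PN the most were 4 per locus, a number that further loci shared with the 3 described here. The locus on NW_005187450.1 (plus strand, 2327852 to 2512805) summed to 9.06, 9.71 and 4.96 FPKM, with fish 3 lowest. The loci on NW_005187409.1 (minus strand, 5198402 to 5349060) and NW_005187424.1 (minus strand, 2118004 to 2296477) summed to 0.507, 0.995 and 0.741 FPKM and to 2.36, 2.93 and 3.36 FPKM.

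The ON locus on NC_031968.1 (plus strand, 43030448 to 43674404) was made almost wholly of transcripts of few exons. It held 18 transcripts, 14 of them with 2 to 3 exons, and 6 of the 18 were long. The long ones summed to 228, 135 and 296 FPKM of 438, 648 and 484 FPKM, so fish 2 had the lowest sum of long spans and the highest sum of the locus. mRNA7902 (long, 106, 20.1 and 129 FPKM) and mRNA7906 (short, 32.3, 225 and 34.0 FPKM) both end 523527 bases from the start of the locus, and fish 2 was lowest for the long and highest for the short one. The long ones did not all do this. Fish 2 was also lowest for mRNA7889 and mRNA7900, but highest for mRNA7890 (21.6, 43.9 and 22.1 FPKM) and mRNA7901 (5.16, 32.5 and 3.04 FPKM). mRNA7910 (short) and mRNA7911 (long) begin 6 bases apart, and mRNA7910 had 121, 185 and 121 FPKM. The 6 long transcripts had 214 to 345 exonic bases. mRNA7900 and mRNA7901 begin near the end of mRNA7890, and mRNA7911 begins near the end of mRNA7902. mRNA7889 overlaps mRNA7890, mRNA7900, mRNA7901 and mRNA7902 widely.

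**Figure D5:**
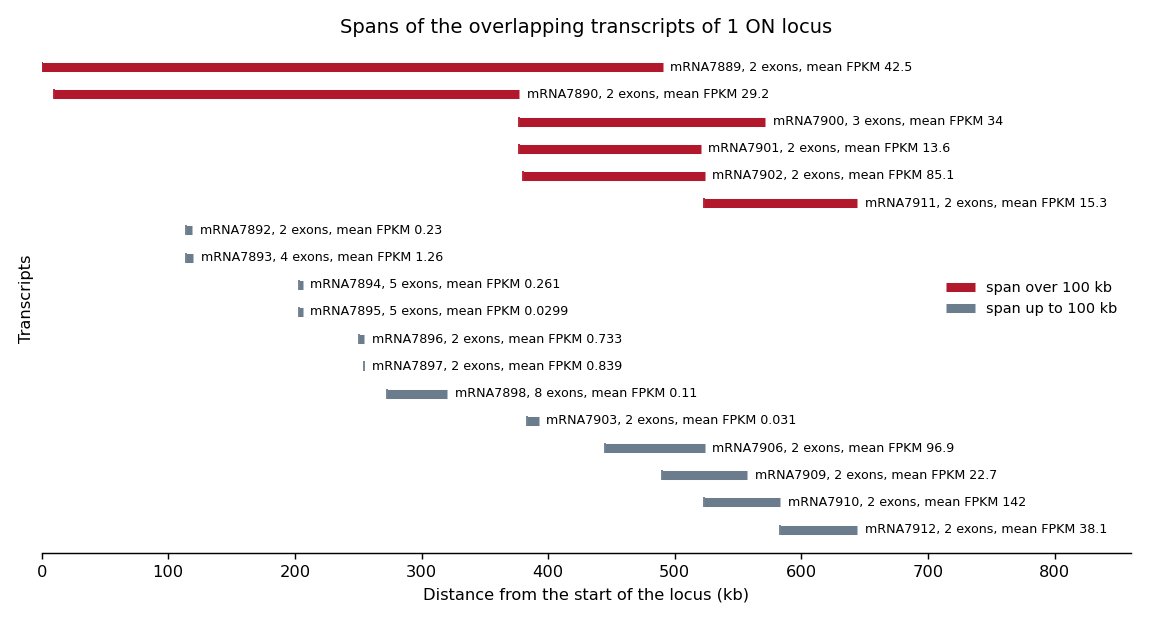
Spans of the 18 overlapping transcripts of the ON locus on NC_031968.1, drawn from the start of the locus (x axis, kb), 1 row per transcript with its exon number and mean FPKM. Dark red bars are the 6 spans over 100 kb and grey bars the 12 shorter ones, and a thin tick marks the start of each span. Long and shorter spans share ends, as mRNA7902 (85.1 FPKM) and mRNA7906 (96.9 FPKM) do, and the shorter transcripts range from 0.0299 to 142 FPKM.

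In 108 of the 679 long-span ON transcripts and 28 of the 592 in PN the span held at least 2 transcripts of the same strand that did not overlap each other. This was so for 6 of the 8 most abundant in ON and 2 of the 8 in PN, of which mRNA2236 was one. Shorter spans were not counted in this way, so these numbers do not show a trait of long spans. Without all such long spans the level difference was -1.60 in ON and -2.22 in PN, and the detection difference was -9.02 and -11.1 percentage points. Whether such a transcript joins separate genes was not tested, since the tables used here hold no exon positions.

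Transcripts without a strand, all of 1 exon, lay inside the long spans as well. In ON 741 lay within the 486 merged stretches of long span, 8.25 per megabase, against 9.04 per megabase in stretches of 50000 to 100000 bases. In PN there were 1292, or 17.0 per megabase against 19.4. Counted per megabase they were thus no denser in long spans. Stranded transcripts of other loci inside the long stretches numbered 397 in ON (4.42 per megabase, against 2.93) and 83 in PN (1.09, against 1.21).

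Serial names gave a further split that the choice of transcripts did not use. Most names run in order of position, and those with low numbers (below 3259 in ON and 2310 in PN) do not. The sources used here do not say what sets them apart. Low-numbered names were carried by 166 long spans in ON (24.4%, against 9.95% of all shorter spans) and 98 in PN (16.6%, against 8.43%). Of these, 73.5% in ON and 79.6% in PN were above 0 in all 3 fish, against 60.4% and 63.4% of long spans named in order. Their median mean FPKM was 0.583 in ON and 1.15 in PN, against 0.172 and 0.175. Low-numbered shorter spans were not measured apart, so these values do not show a trait of long spans. Shorter spans named in order, at the same exon number, were above 0 in all 3 fish in 69.1% in ON and 75.2% in PN. Without low-numbered names in either span class, the level difference was -1.65 in ON and -2.27 in PN.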

How the data were processed

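Paired 75 bp reads were aligned with HISAT2 2.1.0 per the submitters' processing notes, which also name StringTie. Per the methods, transcripts were assembled with the annotation as a guide and combined over the 3 fish, those without expression and duplicates were discarded, and similar ones in a locus were joined. The tables still list transcripts at 0 in all fish. The authors deposited, per library, FPKM and per-base coverage (signal) of each transcript of the merged set. Neither is a count, so no count model was used.

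Long-span transcripts and the classes they were compared with were chosen with earlier results of these data known. Detection was FPKM above 0 in all 3 fish. The level was the median over long spans of log2(FPKM + 0.1), each minus the median of shorter spans with its exon number, per library. For detection, each exon number was weighted by its number of long spans. Coverage divided by FPKM is constant per library (relative tolerance 0.0001) and gave the aligned bases, and coverage times exonic length over 75 gave reads. Tests over fish were exact sign flips within a species and exact permutations of 3 against 3 between species. No per-transcript test was run. Replicate numbers mark different fish, and nothing pairs those of ON with those of PN. The scripts were tested on simulated data. Known level differences came back within 0.077 (ON, 30430 transcripts) and 0.038 (PN, 25209), and detection within 2.36 and 3.48 percentage points. The simulated transcripts were independent of each other, and their levels had no pseudocount or excess of zeros. The simulation therefore checked the matching on exon number only.

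Named transcripts are, per species, the 8 with the highest mean FPKM, the 5 longest, the 3 highest in one library among those listed at 0 in another, the 3 nearest to the threshold on each side, and the 3 loci with most long spans. Loci tied in their number of long spans were taken in order of sequence name and position. Exceptions named after their values were seen are mRNA7906 and mRNA7910, and further transcripts of the same locus on NC_031968.1. Alternatives were other span thresholds and references, no or closer matching, other FPKM minimums and pseudocounts, coverage in place of FPKM, summed loci and leaving out each fish. Gene names, sequences and exon positions were not used here, as no genome or annotation of ASM185804v2 or PunNye1.0 was at hand. Calculations used numpy 2.4.6 and scipy 1.17.1 on tables read with pandas 2.3.3 in Python 3.11.15, and plots were drawn with matplotlib 3.10.9.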

Additional observations from a re-analysis of the deposited data

How the results depend on the processing

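Over all comparisons other than means of single transcripts, 3 alternative values reversed and the others kept their direction. Of these others, 112 were counted as the same and 12 as moved. Level and species differences were judged by direction only. Detection counted as moved outside the exact interval, which is too narrow, and the percentile when it changed by the SD of the fish or more. The CV at a mean of at least 1 FPKM could only count as moved or reversed. The level difference kept its direction but shrank against spans of 50000 to 100000 bases and with a pseudocount of 1. Matched on exon number and exonic length, the level difference was -1.24 in ON and -2.05 in PN. The detection difference was then -7.87 and -11.5 percentage points. Exonic length was matched only coarsely, in bins cut at the quartiles of the long spans compared. The detection difference in ON (-5.94 percentage points) was 1.77 for spans over 200000 bases, though -4.07 for those of 200000 to 300000. It was -1.97 without matching on exon number, -11.3 at an FPKM of at least 0.1 and -16.2 at 1, and leaving out each fish gave -6.23 to -4.08. In PN (-9.73) it was -4.95 against spans of 50000 to 100000 bases, -17.2 at 0.1 FPKM and -21.5 at 1, and -9.60 to -7.97 without each fish. Without matching, the median percentile was 37.1 in ON and 26.2 in PN. Matched on exon number, the CV of long spans exceeded the median CV of shorter spans by a median of 10.1 points in ON and 19.5 in PN. At a mean of at least 1 FPKM this excess was 1.65 and 1.40 points. The lower base share of ON (-1.16 points) reversed to 0.106 without the transcript of highest mean FPKM in each species. That transcript held far less of the long-span bases in ON than in PN.

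Leaving out each fish, the level difference was -1.44 to -1.40 in ON and -2.14 to -2.01 in PN, and its ON minus PN difference was 0.60 to 0.72. Alternatives on transcripts of 2 to 3 exons were chosen after the data were seen. Their detection difference (12.6 points in ON, 18.7 in PN) was -0.758 in ON and 27.9 in PN against spans of 50000 to 100000 bases, and 27.3 in PN without members under 300 bases. Means of single transcripts could rest on 1 fish: mRNA26023 averaged 299 FPKM and 37.5 without ON fish 3. The level difference of the 2 to 3 exon class without each fish was 2.18 to 2.77 in ON and 0.28 to 0.65 in PN. Against spans of 50000 to 100000 bases the PN level difference was 0.17, with fish of both signs. The causes were not tested.

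With the replicate number as a block, the ON minus PN difference was 0.66 in level and -1.16 points in base share, each with an exact sign-flip p of 0.25, the smallest possible. Deviations of same-numbered fish from their species means had correlations of -0.53 for level and -0.97 for base share. For base share they were opposite at every number, while for level fish 1 lay above the mean in both species. The numbers do not pair the fish. With 3 fish per species no test here could pass 0.05.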
